A study of Mus with 2 samples.

Results

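Syndecan expression was examined in mouse bone marrow derived macrophages (BMDMs) that had been treated with GW4064, a synthetic agonist of the farnesoid X receptor (FXR). The members were Sdc1, Sdc2, Sdc3 and Sdc4, the 4 syndecan genes of the mouse, and each was found through the RefSeq transcript that the array files pair with a probe. This gave 1 probe for each gene, so that the family made up 4 of the 39429 probes and 4 of the 20144 genes that could be named. The family was chosen by the very signals described here, because Sdc1, a known FXR target, had been higher on the GW4064 array. The differences between the arrays are therefore given as a description, without a test.

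Both groups came from male C57BL6/J mice aged 10 weeks, and the labels name no transgene or deletion. Bone marrow cells were grown for 7 d in 10 ng/mL of M-CSF and were then kept for 24 h in 10 ng/mL of IL-4, the cytokine used to induce M2 macrophages. The DMSO group received the solvent during these 24 h and the GW4064 group received 10 µM of GW4064, and each group was read on 1 Agilent 1-colour array. The number of mice behind each culture was not given in the sources used here, and BMDMs without IL-4 were not analysed here. The title, source name and treatment label of each sample named the same condition, whereas the free-text description of the GW4064 sample repeated that of the DMSO sample. Since there was 1 array for each group, no replicate error or p-value could be given for the effect of the treatment, and the number of arrays limited the precision.

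Syndecans are transmembrane proteins of the cell surface whose extracellular part carries heparan sulfate chains. The chains bind growth factors, chemokines and matrix proteins, and the short cytoplasmic tail ends in a motif that is held by PDZ domain proteins such as syntenin. Metalloproteinases can cut the extracellular part near the membrane and release it with its chains. In macrophages, syndecans have been studied mainly in adhesion, migration and the handling of ligands bound to heparan sulfate.

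The processed signal of a spot, its brightness after the scanner software had subtracted the background, was divided by the 75th percentile of the array, which was 1209 for DMSO and 1265 for GW4064. A probe was called detected when the software marked it as well above background. This was so for 57.4% of the probes with DMSO and for 58.5% with GW4064, and all 4 syndecan probes were detected on both. The macrophage markers checked were also present. All 8 of the 9 listed genes that had a named probe were detected on both arrays, among them Adgre1, the gene of F4/80, with a mean log2 difference of -0.25 over its probes, and Itgam, the gene of CD11b, with 0.089. The list had a median of 0.060, or -0.13 when centred on the spike-in control RNA. At least 1 array detected 23749 probes, of which 510 (2.15%) passed 2-fold towards higher and 659 (2.77%) towards lower signals with GW4064. Spots that differed 8-fold or more, 577 in all, lay partly in groups, and a spot with 2 or more others of them within 300 µm is said here to lie in a clustered area, which held for 16.5% of the spots. None of the syndecan spots was in such an area or was marked by the software as uneven, and 1 spot that differed 8-fold lay within 300 µm of that of Sdc4. Signals are printed as read, and folds and log2 differences are given after scaling.

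Sdc1 was higher with GW4064 and was the 1 member of 4 that differed by 2-fold or more. It encodes syndecan-1, also known as CD138, which is abundant on epithelial cells and plasma cells and is also made by macrophages. Its probe (NCBI gene 20969) had a signal of 2163 ± 216 with DMSO and 4925 ± 493 with GW4064. The ± is the error that the scanner software assigned to a spot. This error was nearly the same share of the signal at every syndecan spot, which gave 0.20 on the log2 difference of each member. It is therefore not a spread measured for each gene, and it does not cover the spread between cultures. The ranges given by these errors did not overlap. After scaling, Sdc1 was 2.18-fold higher, a log2 difference of 1.12 with a software error of 0.20. The median brightness of the spot before background subtraction was 2465 against a local background of 22 with DMSO, and 5540 against 14.5 with GW4064, so that the background was a small part of the reading on both arrays.

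Copies of a probe on the same array give the spread of the spots alone, which does not cover the spread between cultures. Among the 70 probes printed 10 times with a mean signal within 2-fold of that of Sdc1, the SD of the log2 difference over the copies had a median of 0.073 and was at most 0.21. Sdc1 itself was read at 1 spot on each array. The other detected spots within 5 rows and columns of it, 61 in number, had a median log2 difference of 0.10, and 0 spots that differed 8-fold or more lay within 300 µm. Among the 21707 probes detected on both arrays, Sdc1 had the 133rd highest difference, with 0.608% of the probes above it. Centring on the spike-in RNA, which lowered the median difference of these probes to -0.18, brought Sdc1 to a log2 difference of 0.93, below 2-fold, and it lay between 1.08 and 1.12 under the other settings.

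**Figure D1:**
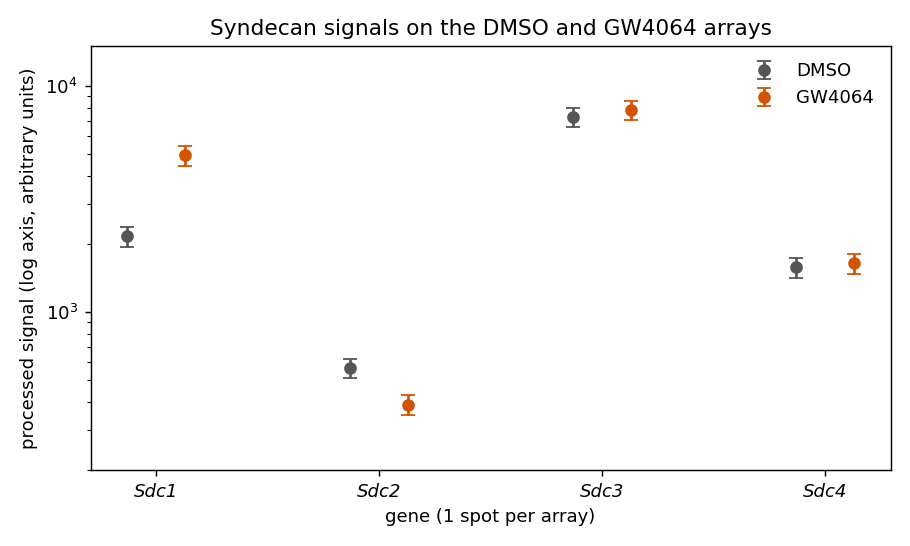
Processed signal (log axis, arbitrary units) of the probe for each syndecan gene on the DMSO array (grey) and the GW4064 array (orange), with bars for the error assigned to each spot by the scanner software. Sdc1 went from 2163 to 4925 and Sdc2 from 566 to 389, while the bars of Sdc3 and of Sdc4 overlap between the arrays; heights of different genes are not comparable, since each probe has its own brightness.

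Sdc2 was lower with GW4064. It encodes syndecan-2, the member best known from fibroblasts and other mesenchymal cells. Its probe (NCBI gene 15529) had a signal of 566 ± 56.7 with DMSO and 389 ± 39.1 with GW4064, and these ranges did not overlap either. The difference was 1.52-fold, or -0.61 on the log2 scale, with a software error of 0.20. Over the 47 probes with copies at a like signal the SD between copies had a median of 0.078 and was at most 0.23. A decrease of 1.5-fold or more was seen for 5.55% of the 23749 probes detected on at least 1 array. Among the 21707 probes detected on both arrays, Sdc2 was the 677th lowest, with 3.11% of the probes below it. Sdc2 was lower under every setting tried, but the size fell short of 1.5-fold after quantile normalization (-0.58) and after another background correction, the normexp model (-0.46). Its 56 detected neighbouring spots had a median difference of 0.0042.

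Sdc3 and Sdc4 differed between the arrays by less than the spread between copies of a probe. Sdc3 encodes syndecan-3, which is known best from the nervous system and is also found on macrophages. Its signal (NCBI gene 20970) was 7276 ± 728 with DMSO and 7815 ± 782 with GW4064, a log2 difference of 0.037 with a software error of 0.20, against a median SD between copies of 0.072. Sdc4 encodes syndecan-4, a broadly expressed member of focal adhesions that binds protein kinase C alpha. Its signal (NCBI gene 20971) was 1576 ± 158 with DMSO and 1643 ± 164 with GW4064, a log2 difference of -0.0051 with a software error of 0.20, against a median SD between copies of 0.069. A change in either gene smaller than these errors would not have been seen with 1 spot on each array. Centring on the spike-in RNA gave -0.15 for Sdc3, which turned its sign, and -0.19 for Sdc4.

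The gaps between the members are also a description, since Sdc1 was part of the choice. The software error was not measured for each gene and does not cover the spread between cultures. The log2 difference of Sdc1 exceeded that of Sdc2 by 1.73 with a combined software error of 0.29, that of Sdc3 by 1.08 and that of Sdc4 by 1.13, each also with an error of 0.29. These gaps do not depend on how the arrays are scaled by a constant. The log2 difference of Sdc2 minus that of Sdc3 was -0.64, that of Sdc2 minus that of Sdc4 was -0.60, and Sdc3 and Sdc4 were 0.043 apart, well inside the error of 0.29. When genes detected on both arrays were ranked by the difference, the nearest to Sdc1 (1.12) of 12578 genes were Ednrb (1.15) and Ccl6 (1.13) above it and Pick1 (1.11, in a clustered area) and Golt1a (1.09) below it. With 2 arrays this likeness rests on a single difference for each gene.

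**Figure D2:**
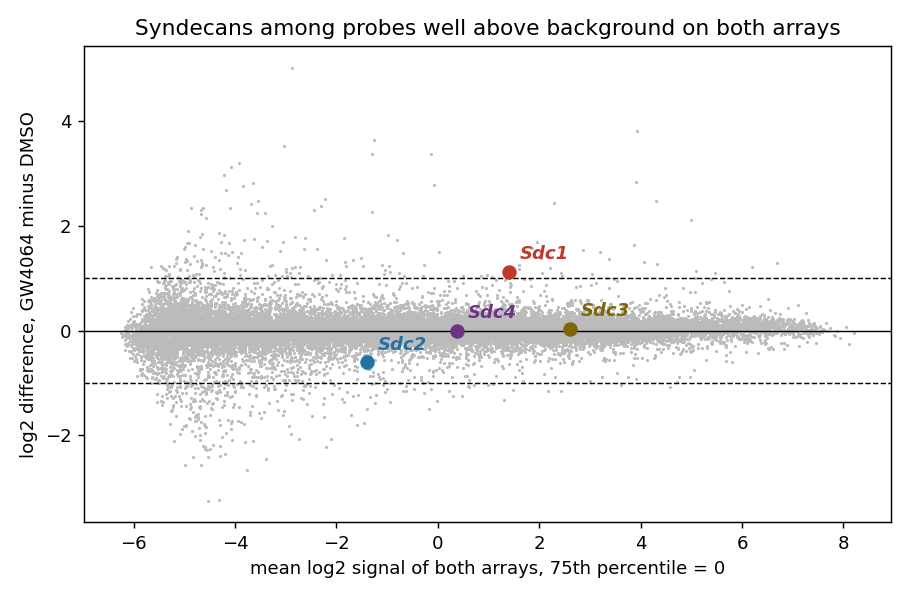
Log2 difference of GW4064 minus DMSO (vertical axis) against the mean scaled log2 signal of both arrays (horizontal axis) for the 21707 probes detected on both, in grey, with the syndecans in colour and dashed lines at 2-fold. Sdc1 (1.12) lies above the upper line, Sdc2 (-0.61) lies below the bulk of probes of its brightness, and Sdc3 and Sdc4 lie at 0.037 and -0.0051.

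**Figure D3:**
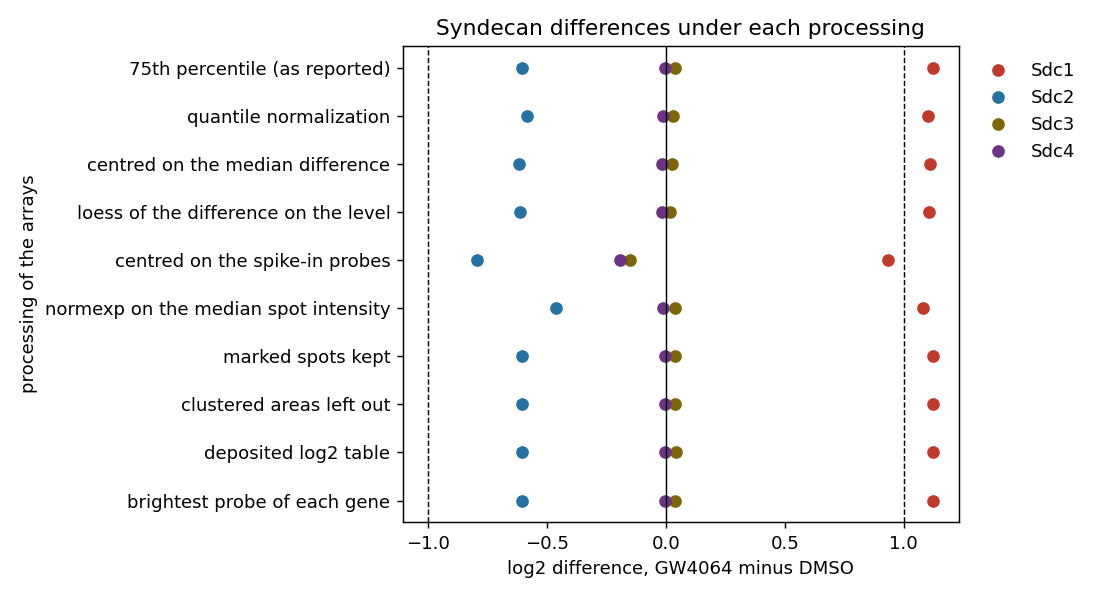
Log2 difference of each syndecan gene (horizontal axis) under each way of processing the arrays (vertical axis), with dashed lines at 2-fold. Sdc1 is the highest and Sdc2 the lowest under every setting shown, and Sdc1 falls below 2-fold, to 0.93, under the spike-in centring.

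The other genes of heparan sulfate proteoglycan biology were taken from lists by role. A gene's value is the mean over its detected probes. Of all 13533 named genes detected on at least 1 array, 51.6% were higher and the median log2 difference was 0.0069. At 2-fold, 276 (2.04%) of these genes were higher and 367 (2.71%) were lower, and the counts for the short lists below stand beside these shares. Where a gene was detected on 1 array only, the other array was given the higher of the gene's own signal and the lowest signal detected there. With the lowest detected signal, the difference is a lower bound and is written as "at least". With the gene's own signal, it is a plain difference from an undetected reading.

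The next list held 12 other core proteins that can carry heparan sulfate chains, and which chains they carried in these cells was not measured. Of these genes 9 were detected, 2 were higher and 7 lower, with a median of -0.20. The higher ones were Srgn, the gene of the granule proteoglycan serglycin, with a log2 difference of 0.47, and Gpc1, the gene of the membrane-anchored glypican-1, with 0.37. Hspg2, which encodes the basement membrane proteoglycan perlecan, had -0.73 on its detected probe. Gpc2 was at least 3.48-fold lower, with a signal of 50.3 on the DMSO array at a spot in a clustered area, and was the 1 of these 9 genes to reach 2-fold, though not after the normexp correction (-0.56).

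The enzymes that build the chains and those that sulfate them were counted apart, and the difference between these lists was not tested. Of the 11 genes for the linker and the chain, 5 were higher and 6 lower with a median of -0.0042, and 0 reached 2-fold. Ext1, a subunit of the chain polymerase, had a log2 difference of 0.33. Of 20 genes for sulfation and epimerization, 12 were detected, 8 higher and 4 lower, with a median of 0.20 (0.017 when centred on the spike-in RNA).

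Ndst1, the N-deacetylase and N-sulfotransferase that begins the sulfation of the chain, was the 1 gene of this list that was 2-fold or more higher. Its 3 probes all pointed the same way. The brightest had signals of 1518 and 3258, which is 1.04 on the log2 scale, and the others had 1.18 and 0.84 at signals from 41.4 to 128. The mean of 1.02 was below 2-fold when centred on the spike-in RNA (0.83) and after the normexp correction (0.65). None of the Ndst1 spots lay in a clustered area. Hs6st2 was 2.56-fold lower, at a spot in such an area, against its own undetected signal of 15.6 with GW4064. It had -0.42 after the normexp correction.

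Trimming of the chains and their breakdown in lysosomes showed small differences. Of the 12 genes, 11 were detected, 4 higher and 7 lower, with values between -0.44 and 0.11 and a median of -0.038. Hpse, the gene of heparanase, which cuts heparan sulfate chains outside the cell, had a log2 difference of -0.18 as the mean of 2 probes (-0.014 and -0.34). Sulf1 and Sulf2, which remove sulfate groups at the cell surface, had -0.44 and 0.11.

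The enzymes that shed syndecans and the inhibitors of such enzymes held members past 2-fold in both directions. Of 13 genes 11 were detected, 5 higher and 6 lower, with a median of -0.32. Mmp9, a secreted gelatinase, rested on 10 copies and went from a mean signal of 437 to 3152, which is 2.78 on the log2 scale (SD between copies 0.11). Timp3, a matrix-bound inhibitor of metalloproteinases and of ADAM17, went from 646 to 221, a log2 difference of -1.61. Adam10, a membrane-bound sheddase, went from 7635 to 12011, a log2 difference of 0.59, and Adam17 had 0.13 as the mean of 2 dim probes, but -0.078 after the normexp correction.

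Mmp2, another gelatinase, was 2.32-fold lower at a spot in a clustered area, and normexp brought it to -0.90. Mmp3 was at least 3.28-fold lower and Mmp16 at least 2.21-fold higher, the latter in a clustered area, and both rested on signals under 50 (Mmp3 47.4 with DMSO, Mmp16 36.4 with GW4064). Neither reached 2-fold after the normexp correction (-0.71 and 0.36), nor did Mmp16 under the spike-in centring (0.96). The inhibitor Timp1 had -0.83, and -1.02, past 2-fold, when centred on the spike-in RNA, and Timp2 had -0.32. Whether syndecan protein was shed to a different extent was not measured on these arrays.

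Of the genes for proteins that bind the cytoplasmic tail or act with it, all 17 were detected, 7 higher and 10 lower, with a median of -0.067. Sdcbp, the gene of syntenin, had a log2 difference of 0.061 over 2 probes that gave 0.054 and 0.068, and Cask, a scaffold that binds the same motif, had -0.14 over 3 probes. Sdcbp turned negative (-0.13) when centred on the spike-in RNA. Tiam1, an activator of Rac1, had -0.68. Src, the kinase, was 2.32-fold higher, but its signal with DMSO, 15.7, was the lowest detected on that array, and the normexp correction gave 0.45.

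Of the 17 genes for ligands of the chains, 13 were detected, 7 higher and 6 lower, with a median of 0.038, or -0.15 when centred on the spike-in RNA. Those 2-fold or more higher numbered 3. Vegfa, the angiogenic growth factor, had log2 differences of 1.38 and 1.18 on its probes. Ccl5, a chemokine that binds heparan sulfate, went from 446 to 1311, a log2 difference of 1.49. Bmp2, a growth factor of the TGF-beta family, went from 26.2 to 254 at a spot in a clustered area, a log2 difference of 3.21, or 1.66 after the normexp correction. Hbegf, the heparin-binding EGF-like growth factor, had 0.76, and Fgf2 was detected on neither array.

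Partner receptors at the cell surface all had gene means on the lower side. The 10 genes had values between -0.54 and -0.033 and a median of -0.21, and 0 reached 2-fold. Kdr (-0.033) and Itgb1 (-0.048) lay inside the median SD between copies of 0.077, and the brighter Kdr probe had 0.018. Itgav and Itgb3 encode the chains of the alpha-v beta-3 integrin, which syndecan-1 is known to engage. Itgav had a mean of -0.27 over probes at -0.48 and -0.050, of which the first lay in a clustered area, and Itgb3 had -0.54 over probes at -0.80 and -0.28. The brighter Itgb3 probe, with -0.80, had signals of 18528 with DMSO and 11113 with GW4064.

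**Figure D4:**
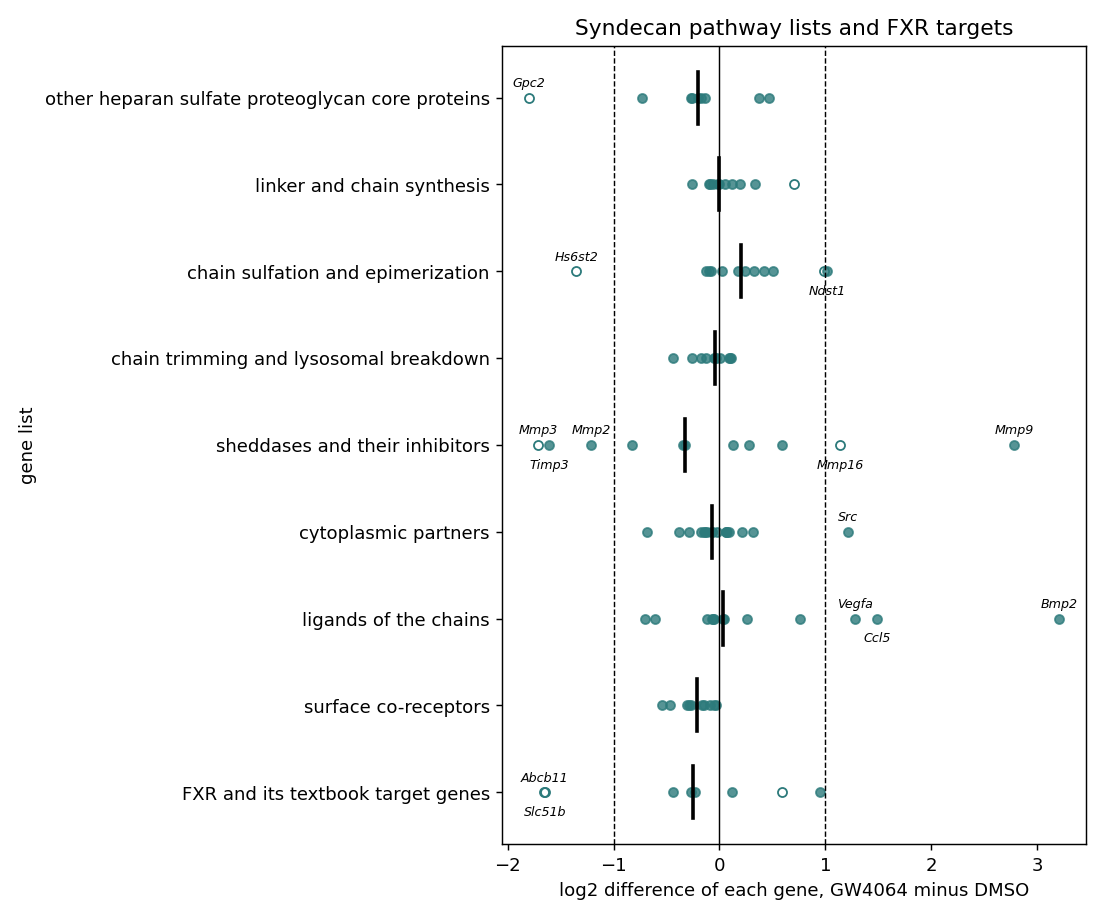
Log2 difference of each detected gene (horizontal axis) in the lists of syndecan biology and of FXR targets (vertical axis). Filled points are genes with a probe detected on both arrays, and open points are genes detected on 1 array only. Open points are lower bounds, except Hs6st2, Abcb11 and Kng1, which are plain differences from an undetected reading. Black bars are list medians and dashed lines mark 2-fold. Genes at or beyond 2-fold are named, and the medians run from -0.32 (sheddases and their inhibitors) to 0.20 (sulfation and epimerization).

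FXR RNA was not detected on these arrays. The probe for Nr1h4, the gene of FXR, had signals of 3.46 with DMSO and 3.24 with GW4064, below the lowest detected signals of 15.7 and 15.1, so that its level on these arrays has only an upper bound. This rests on a single spot, which lay in a clustered area. By real-time PCR, the study did report Nr1h4 RNA in BMDMs. Nr0b2 encodes SHP, the repressor that FXR induces in liver and intestine. It went from 22.5 to 45.5, a log2 difference of 0.95, at a spot in a clustered area. It had 0.35 after the normexp correction and 1.03, past 2-fold, after quantile normalization. Of 15 genes for FXR, its partner RXR alpha and textbook targets, 14 had a named probe and 8 were detected, 3 higher and 5 lower, with a median of -0.25.

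At the 75th percentile scaling no gene of this list was 2-fold or more higher, and 2 were lower. Abcb11, the bile salt export pump, was 3.15-fold lower, against its own undetected signal of 19.5 with GW4064. Slc51b, a subunit of the basolateral bile acid transporter, was at least 3.14-fold lower. Both were detected on the DMSO array alone, with signals of 58.5 and 45.3. The normexp correction gave -0.48 and -0.67. Slc51a, Fgf15 and Fabp6, genes that FXR induces in the intestine, were detected on neither array. 

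Markers of M2 macrophages were measured beside the syndecans. Of the 8 genes 7 were higher, with a median log2 difference of 0.72. Arg1, arginase-1, had 3.82 and was the 1 gene of the list past 2-fold, followed by Mgl2 with 0.99 and Retnla with 0.91. Mrc1, the gene of CD206, had -0.34, and Chil3 had 0.066, or -0.12 when centred on the spike-in RNA.

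Markers of other cell types that the cultures could hold were measured too. At 2-fold on the 75th percentile scaling, 2 of 13 detected stromal markers and 2 of 9 detected plasma and B cell markers were lower. On that scaling 1 stromal marker was higher, and no epithelial, neutrophil or endothelial marker reached 2-fold. Centred on the spike-in RNA, the neutrophil markers Mpo (-1.13), S100a9 (-1.07) and Ltf (-1.01, at a spot in a clustered area) passed 2-fold towards lower signals. Of all named genes detected, 2.71% were lower and 2.04% were higher at 2-fold. In bulk RNA, fewer cells of a type and less RNA for each cell cannot be told apart. Of 14 fibroblast and stromal markers 13 were detected, 11 lower and 2 higher, with a median of -0.76. Their summed signal, in units of the 75th percentile of the array, was 22.2 with DMSO and 12.0 with GW4064. The brighter Sparc probe went from 22294 to 12535 and Col1a2 from 10058 to 5296. Sparc and Col1a2 made up most of both sums, which therefore say little about the other genes. Col1a2, a collagen chain, had a log2 difference of -0.99 (-1.18, past 2-fold, when centred on the spike-in RNA), and Postn and Fbln2, which encode matrix proteins, were 2.16-fold and 2.41-fold lower. After the normexp correction Postn had -0.98 and Fbln2 -0.74. Fap, a surface protease of activated fibroblasts, was 2.95-fold higher, and Lum was detected on neither array. Sdc2, with -0.61, was lower, as were most genes of this list, and the part of stromal cells in its difference was not tested.

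Because syndecan-1 is a marker of plasma cells, the list for plasma and B cells bears on Sdc1. Of 11 genes 9 were detected, 8 lower and 1 higher, with a median of -0.56. Jchain, the joining chain of secreted antibodies, went from 1129 to 567 and was 2.08-fold lower, with -0.96 after the normexp correction. Ms4a1, the gene of CD20, was at least 2.47-fold lower and detected with DMSO only (-0.57 after the normexp correction), and Cd79a was detected on neither array. Tnfrsf17, the gene of the plasma cell receptor BCMA, had signals of 27.4 and 24.8. The higher gene was Xbp1, with 0.12, or -0.064 centred on the spike-in. Among the lower ones were Irf4 with -0.48, at a spot in a clustered area, and Prdm1 with -0.56, and macrophages are known to express these 3 genes too. The summed signal of the list was 34.5 with DMSO and 35.7 with GW4064. Xbp1, with signals of 36504 with DMSO and 41630 with GW4064, made up most of both sums, which therefore say little about the other genes. Sdc1 was higher on the array on which most of these markers were lower, and the part of plasma cells in its difference was not tested.

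Epithelial cells are the other main source of syndecan-1. Of 6 epithelial markers, Epcam, Krt8, Krt18, Krt19 and Cldn4 were detected on neither array, with signals between 3.11 and 5.16. Cdh1, the gene of E-cadherin, rested on 10 copies and differed by 0.0035 on the log2 scale, against an SD between copies of 0.098. All 7 neutrophil markers with a named probe were lower, with a median of -0.79 and a summed signal of 11.5 with DMSO and 7.09 with GW4064. S100a9, with signals of 8136 with DMSO and 4614 with GW4064, made up the largest part of both sums. The 4 detected endothelial markers were lower, with a median of -0.32. Of these, Kdr, also listed among the partner receptors, had -0.033, inside the median SD between copies of 0.077. Its brighter probe had 0.018.

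**Figure D5:**
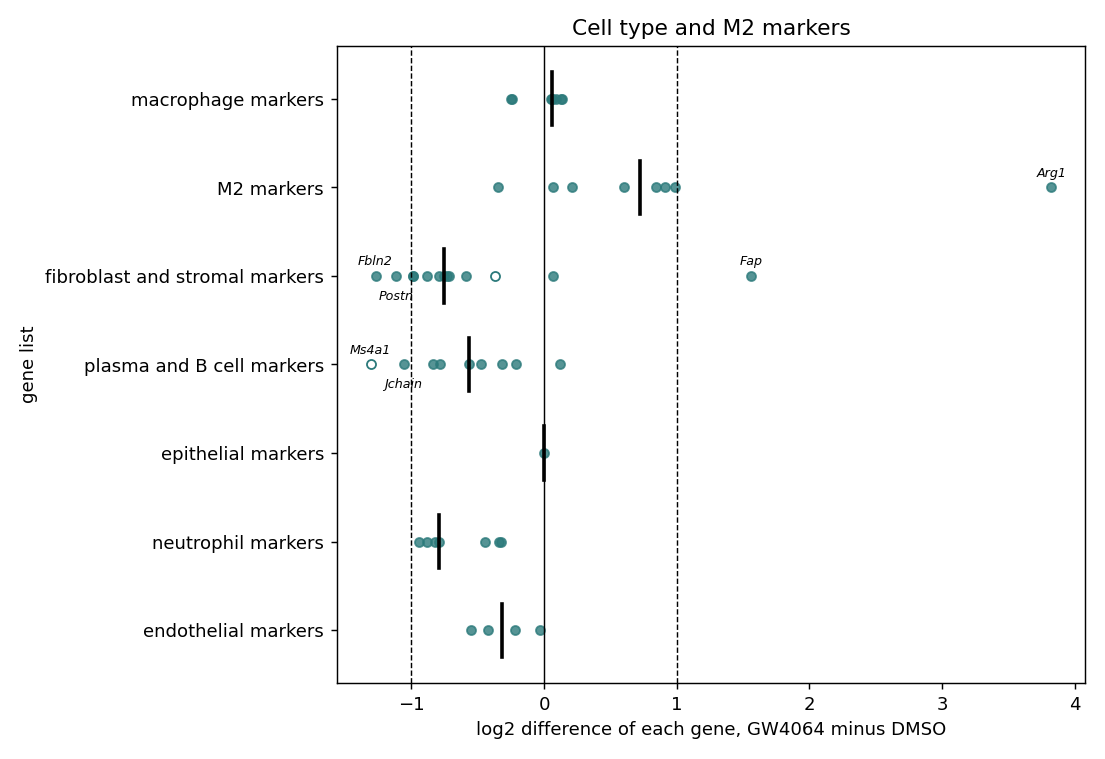
Log2 difference of each detected gene (horizontal axis) in the lists of cell type and M2 markers (vertical axis), with filled points for genes with a probe detected on both arrays, open points for lower bounds, black bars for medians and dashed lines at 2-fold. M2 markers have a median of 0.72, macrophage markers of 0.060, and stromal, plasma and B cell, neutrophil and endothelial markers lie mostly below 0.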

How the data were processed

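For each array the authors deposited Agilent Feature Extraction 10.7.1.1 files, in which the intensity of a spot is background-subtracted and evened out within the array but not scaled between arrays. A deposited table holds log2 values for the same arrays, whose scale and centring method are not given in the sources used here. Its differences equalled those computed from the intensities apart from a constant of 0.0022.

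The log2 of each intensity minus the 75th percentile of its array was used, without spots marked as non-uniform or as outliers among copies (399 on the DMSO array, 207 on the GW4064 array), and spots of a probe were averaged. Symbols came from RefSeq transcripts of GRCm38.p6 for 26581 probes. Of the listed genes, Hs3st4, Slc35b2, Apoc2, Cd68 and Ly6g had no probe matched by transcript. The part of a transcript that a probe reads and the probe sequences were not used here. Differences are GW4064 minus DMSO, with 2-fold as the threshold and no test.

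The members and lists were chosen with earlier results of these data known. Named genes were the syndecans, list members changed 2-fold or more, further members chosen for their role or as defining markers, and the genes ranked next to Sdc1. Timp1, Timp2, Tiam1, Hbegf, Sulf1, Sulf2, Irf4 and Prdm1 were added after their values were seen, to describe their lists. The alternatives were other scalings (quantile, median, loess with a span of 0.3, spike-in RNA), normexp (median spot intensity, offset 50), the deposited table, other filters and thresholds of 1.5-fold and 4-fold, marked spots kept, the brightest probe, and leaving out clustered areas. The calculation was tested on simulated data with 4-fold changes in bright probes only. That simulation held no changes in dim probes, no marked spots and no clustered areas, so it does not bear on these. Normalizations used limma 3.58.1 in R 4.3.3, and the rest used pandas 2.3.3, numpy 2.4.6 and scipy 1.17.1 in Python 3.11.15, with figures by matplotlib 3.10.9.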

Additional observations from a re-analysis of the deposited data

How the results depend on the processing

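No paired analysis was possible because there was only 1 array for DMSO and 1 for GW4064. Sdc1 stayed higher and Sdc2 lower under all 9 alternatives, and the 4 members moved by less than the spread between copies in 31 of 36 comparisons. The others were the spike-in centring, with 0.93 for Sdc1, -0.79 for Sdc2, -0.15 for Sdc3 and -0.19 for Sdc4, and the normexp correction for Sdc2, with -0.46. Keeping marked spots, leaving out clustered areas and taking the brightest probe could not move any member. Each syndecan had 1 probe at 1 unmarked spot outside such areas. The deposited table and the median centring only shifted all probes by a constant, 0.0022 and 0.012. These alternatives therefore say little about how stable the differences are.

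The counts of probes past 2-fold, 510 higher and 659 lower, became 112 and 120 after normexp, 277 and 338 without clustered areas, 1637 and 1664 without a filter on dim probes, and 178 and 278 over probes detected on both arrays. It became 1117 and 1318 at 1.5-fold and 118 and 156 at 4-fold. Centred on the spike-in RNA it was 380 and 901. Without the filter, Sdc1 ranked 1445th and Sdc2 36407th from the highest. Those ranks include dim probes, with 39200 probes having an unmarked spot on each array, and so differ in scope from the ranks among 21707 probes above.

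Centred on the spike-in RNA, the list medians were -0.39 (other core proteins), -0.19 (linker and chain), 0.017 (sulfation and epimerization), -0.23 (trimming and breakdown), -0.51 (sheddases and inhibitors), -0.25 (cytoplasmic partners), -0.15 (ligands), -0.40 (co-receptors), -0.44 (FXR and targets), -0.13 (macrophage), 0.53 (M2), -0.94 (stromal), -0.75 (plasma and B cell), -0.18 (epithelial), -0.98 (neutrophil) and -0.51 (endothelial). After normexp they were 0.10 (sulfation), -0.12 (FXR and targets), 0.59 (M2), -0.59 (stromal), -0.33 (plasma and B cell), -0.52 (neutrophil) and -0.18 (endothelial). Without clustered areas they were -0.69 (plasma and B cell), -0.62 (neutrophil) and -0.22 (endothelial). The stromal median was -0.88 with the brightest probes, and the endothelial median was -0.24 after quantile normalization. The other 132 of 160 list values moved by less than 0.077, the median SD between copies. Dim genes detected on 1 array have only bounds or differences from an undetected reading.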
